A study of Mus musculus with 4 samples.

Results

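The genes described here are 34 genes of G2 and mitosis, taken by symbol from the deposited table of 43998 gene entries, and all 34 were found. Each had an RPKM (reads scaled to transcript length and sequencing depth) well above 1 in both genotypes, so none was lost to a filter on low values. The RNA came from THY1-positive spermatogonia of C57BL/6 mice at postnatal day 4, pulled from testis with magnetic beads against CD90.2 (THY1), a cell surface protein by which undifferentiated spermatogonia are enriched. There were 2 libraries from control mice and 2 from mice with impaired retinoic acid signalling in the germ cells. Which gene was modified, which promoter directed the change to germ cells and how many animals stood behind a library are not given in the labels. The table holds 1 combined value per genotype, so the spread between libraries is hidden, and the differences below are descriptions that carry no SD and no test.

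Cells in G2 and mitosis express a shared set of genes. Their products build the spindle, condense and attach the chromosomes, hold the cell at the spindle checkpoint and divide it. Cyclin A2 and the B-type cyclins bind the kinase CDK1 to drive entry into mitosis, and the anaphase-promoting complex (APC/C), a ubiquitin ligase, destroys cyclins and other proteins to end it. Spermatogonia of the neonatal testis have resumed division after the mitotic arrest of fetal germ cells. Retinoic acid, made from vitamin A, starts their differentiation.

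The G2 and mitosis genes did not differ as a block between the genotypes. Of the 34 genes, 23 were lower in the mutant value and 11 higher, with a median log2 difference of -0.12 on the log2(RPKM + 1) scale used for all differences. The lowest were Cdk1, the mitotic kinase itself, Birc5, which encodes survivin, and Cdca3, a promoter of mitotic entry. The highest were Cenpe, a kinetochore motor, Ndc80, a microtubule-binding kinetochore protein, and Kif20b, a motor of cytokinesis. The 23 lower genes were 67.6% of the set. Of all 16471 genes tested 49.6% were lower and 50.4% higher, and of 12183 protein-coding genes tested 55.7% were lower and 44.3% higher. A gene was tested when its entry held 1 symbol and reached an RPKM of 1 in either genotype. Cdk1, Birc5 and Cdca3 were at least 1.5-fold lower, which is 8.82% of the set against a background of 13.7% of all genes tested and 14.9% of protein-coding genes. No G2 or mitosis gene was 1.5-fold higher, where 12.7% of all genes tested and 6.76% of protein-coding genes were. None passed 2-fold in either direction, while 4.35% of all genes tested were at least 2-fold lower and 4.4% at least 2-fold higher (4.06% and 1.31% of protein-coding genes). The median over all genes tested was 0.005 and that over protein-coding genes -0.06.

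The direction of the higher genes depends on what the values are scaled to. When mutant values were rescaled so that 25 germ cell identity genes had a median of 0, the median over all genes tested moved by -0.43 and all 34 G2 and mitosis genes lay below 0. Cenpe was then at -0.001 and Cdk1 at -1.16. In the deposited values 24 of the 25 identity genes were higher in mutant, with a median of 0.50. Rescaling to them thus lowers every value by construction. The share of all genes tested below 0 at this scaling is not given here, so the count does not set the 34 genes apart. With the trends of transcript length and GC content removed, 25 genes were lower and 9 higher. Of 12183 protein-coding genes 6859 were then lower. Their median of -0.06 is held in place by the removal, so it is the same as without by construction.

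Promoters of such genes are known for a short sequence called the CHR (cell cycle genes homology region), through which MuvB complexes repress them early in the cycle and activate them later, and for CCAAT boxes bound by the factor NF-Y. RefSeq (GRCm38.p6) windows from 250 bases before to 50 after the start were matched for 28 of the 34 genes. The 3 genes with the lowest and the 3 with the highest mutant difference among these 28 are printed 5′ to 3′ to let their promoters be compared. Capitals mark every TTTGAA or TTTAAA (CHR) and every CCAAT (NF-Y box) on either strand, so TTCAAA and ATTGG are the same motifs read from the other strand. The start base, which follows the 250 bases before it, is counted as position 0. The windows lie at chr10:69352863-69353162 (minus strand), chr11:117848987-117849286 (plus strand), chr6:124829926-124830225 (plus strand), chr19:34922108-34922407 (plus strand), chr17:71526808-71527107 (minus strand) and chr3:135212313-135212612 (plus strand).
Cdk1: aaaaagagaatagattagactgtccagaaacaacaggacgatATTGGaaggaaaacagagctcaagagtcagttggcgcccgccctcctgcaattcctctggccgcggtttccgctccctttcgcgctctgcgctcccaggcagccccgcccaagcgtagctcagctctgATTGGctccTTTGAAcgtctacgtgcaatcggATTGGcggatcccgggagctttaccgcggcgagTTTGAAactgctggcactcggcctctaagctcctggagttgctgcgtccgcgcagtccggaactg
Birc5: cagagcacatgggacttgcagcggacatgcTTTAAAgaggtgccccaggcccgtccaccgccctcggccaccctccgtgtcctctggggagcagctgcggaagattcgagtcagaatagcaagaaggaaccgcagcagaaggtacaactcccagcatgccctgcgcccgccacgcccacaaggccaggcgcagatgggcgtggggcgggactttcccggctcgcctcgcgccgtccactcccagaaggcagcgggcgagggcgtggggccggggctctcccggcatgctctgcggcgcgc
Cdca3: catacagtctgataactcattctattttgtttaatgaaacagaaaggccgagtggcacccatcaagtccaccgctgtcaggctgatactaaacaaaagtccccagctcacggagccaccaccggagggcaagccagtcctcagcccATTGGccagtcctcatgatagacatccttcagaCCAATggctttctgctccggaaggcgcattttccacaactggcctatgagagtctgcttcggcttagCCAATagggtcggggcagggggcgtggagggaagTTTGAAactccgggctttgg
Kif20b: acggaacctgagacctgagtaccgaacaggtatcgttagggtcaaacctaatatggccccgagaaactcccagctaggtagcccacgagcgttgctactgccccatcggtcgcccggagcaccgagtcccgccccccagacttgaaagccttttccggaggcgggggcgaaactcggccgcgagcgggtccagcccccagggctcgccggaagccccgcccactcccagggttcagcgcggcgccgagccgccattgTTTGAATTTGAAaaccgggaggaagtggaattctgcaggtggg
Ndc80: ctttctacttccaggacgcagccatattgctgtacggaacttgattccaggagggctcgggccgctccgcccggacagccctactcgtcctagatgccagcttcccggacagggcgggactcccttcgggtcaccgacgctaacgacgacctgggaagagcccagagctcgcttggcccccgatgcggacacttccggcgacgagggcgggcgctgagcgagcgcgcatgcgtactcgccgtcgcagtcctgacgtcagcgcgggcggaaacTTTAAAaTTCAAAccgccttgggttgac
Cenpe: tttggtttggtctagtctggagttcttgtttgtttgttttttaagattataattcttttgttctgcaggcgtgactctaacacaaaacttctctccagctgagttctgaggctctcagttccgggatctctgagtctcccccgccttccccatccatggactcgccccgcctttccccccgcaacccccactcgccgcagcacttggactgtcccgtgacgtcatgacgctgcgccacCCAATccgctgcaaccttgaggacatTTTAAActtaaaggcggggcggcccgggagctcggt

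All 6 windows held CHR letters, and their NF-Y boxes numbered from 0 to 3. The Cdk1 window held 3 NF-Y boxes and 2 CHR elements, the nearer of these at positions -15 to -10. Cdca3 had 3 NF-Y boxes and 1 CHR element, at positions 30 to 35. Birc5 had no NF-Y box and 1 CHR element, far from the start, at positions -220 to -215. Among the 3 highest genes, Kif20b and Ndc80 each had 2 CHR elements just after the start and no NF-Y box, and Cenpe had 1 of each. In Kif20b the pair lay back to back, from position 7 to 18.

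Of the 28 windows, 25 (89.3%) held a CHR element, where 27.6% of all 32851 RefSeq windows and 19.6% of the 12852 windows of genes tested did. An NF-Y box was found in 21 windows, against 37.4% and 37.8%. A CHR element together with 2 or more NF-Y boxes was found in 14 windows, against 3.13% and 2.76%. Nusap1, Tacc3 and Bub1 held no CHR letters in this window. The 14 genes with the combination had a median difference of -0.13, from -0.66 (Cdk1) to 0.20 (Hmmr), and 11 of them were lower. The 14 without it had a median of -0.03, from -0.62 (Birc5) to 0.49 (Cenpe), and 8 were lower. The ranges of the groups overlap over most of their length. A match is a description of the letters and not a binding site.

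**Figure D1:**
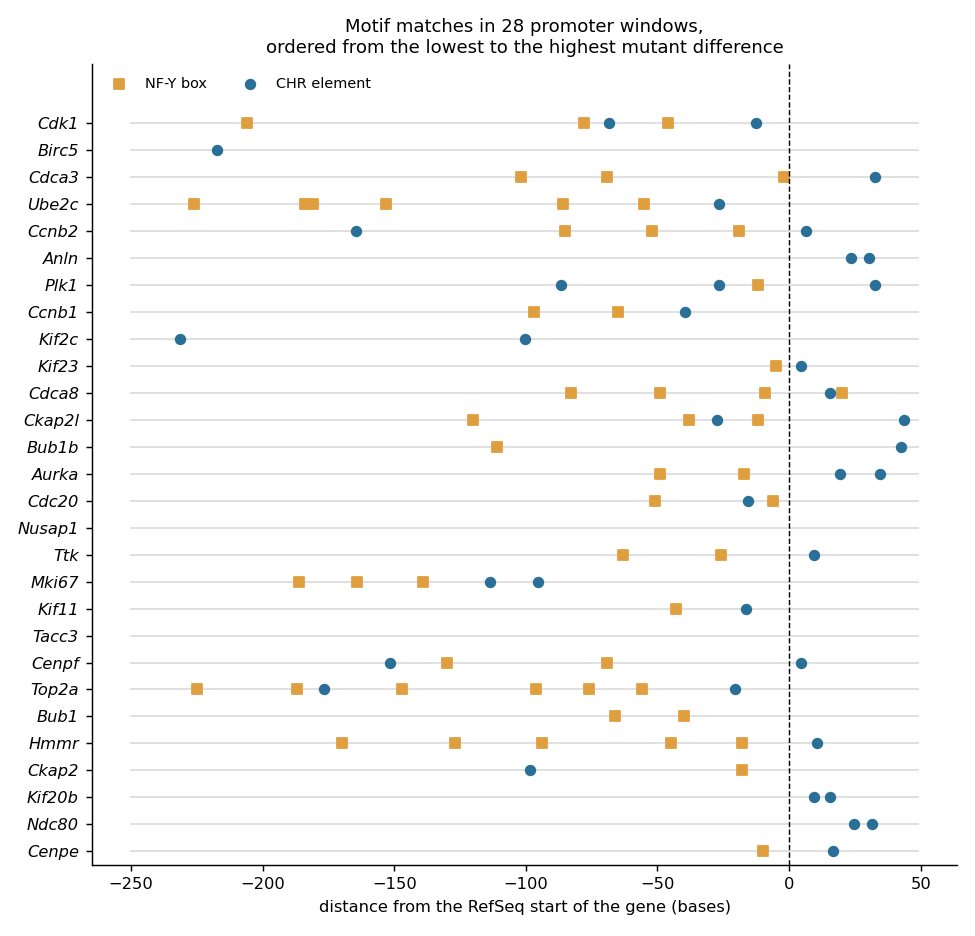
Position of each motif match in the 28 matched promoter windows, in bases from the RefSeq start (dashed line), with genes ordered from the lowest (top) to the highest mutant difference. Circles are CHR elements and squares NF-Y boxes, and CHR elements are found along the whole order, in 25 of the 28 windows.

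The depth behind these values was read from genes with few reads. Low values stepped in multiples of 1 read (within 0.1 of a whole read for 90.5% of 884 control and 95.3% of 900 mutant values), which places the depth near 56.0 M reads in control and 57.3 M in mutant if no other scaling factor entered. The longest annotated transcript of each gene then stands for between 934 reads (Cdc25c in control) and 57805 reads (Top2a in mutant). Counting error alone gave a 95% interval (exact Clopper-Pearson) for the mutant to control ratio that excluded 1 for 30 of the 34 genes. At such read numbers even a ratio of 0.970 (Mki67) excluded 1. The share of all genes tested that did so is not given here, so the count does not set these genes apart. The 4 whose interval held 1 were Nusap1, Ttk, Kif11 and Tacc3. These intervals leave out the spread between animals and libraries, which the combined values hide.

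**Figure D2:**
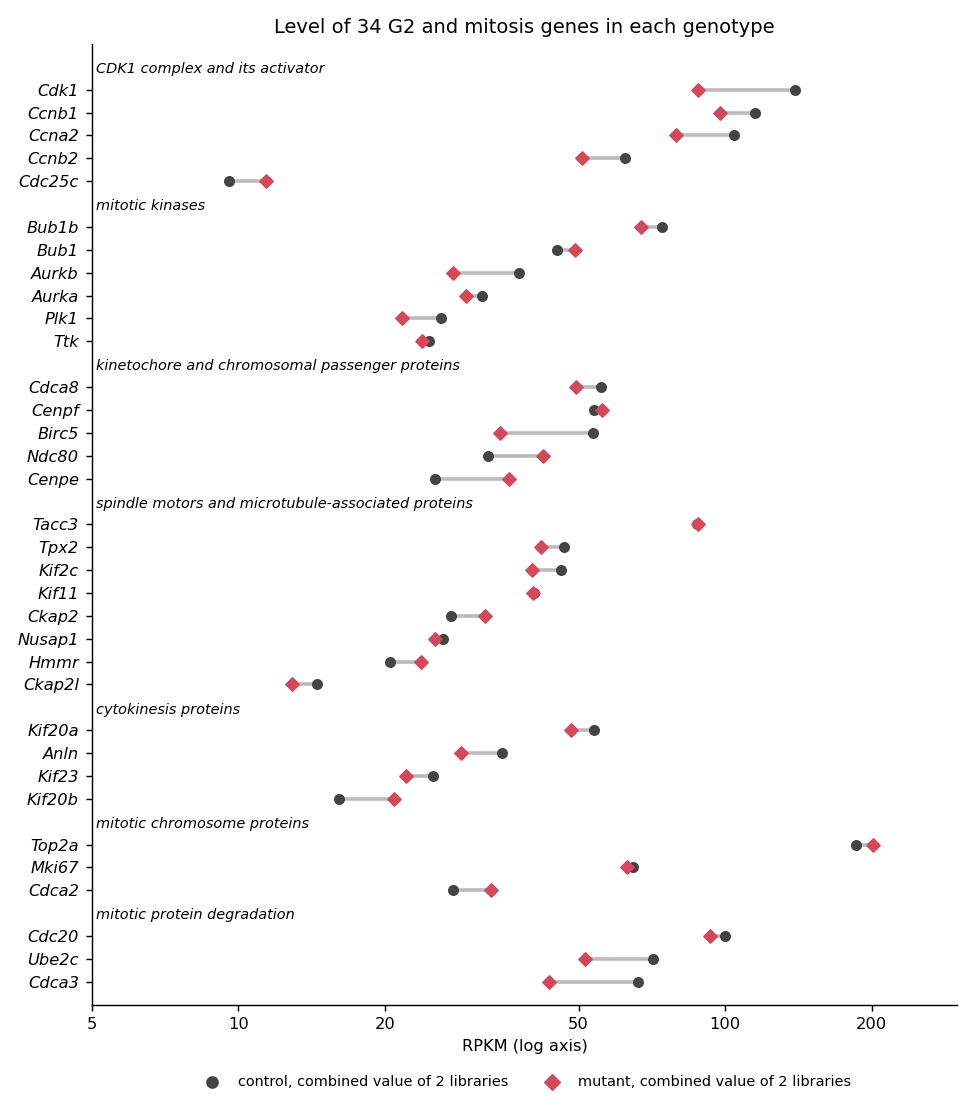
RPKM of the 34 genes (log axis) in control (circles) and mutant (diamonds), grouped by role, with 1 combined value of 2 libraries per genotype and no error bar. Cdk1, Birc5, Cdca3 and Ube2c show the longest shifts to the left and Cenpe, Ndc80 and Kif20b the longest to the right, while Kif11 and Tacc3 overlap.

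Cdk1 and its cyclin genes were lower in the mutant and the phosphatase gene Cdc25c was higher. Cdk1 (chromosome 10, 69336635 to 69352938 in GRCm38) stood at 139 RPKM (control) and 87.9 RPKM (mutant), 1.59-fold lower (counting interval of the mutant to control ratio 0.620 to 0.642). Its log2 difference was -0.66, or -0.55 with quantile normalization, which is short of 1.5-fold. Ccna2, which encodes cyclin A2 of S phase and G2, was at 104 and 79.2 RPKM (control and mutant, in this order throughout). Ccnb1, the main cyclin of mitotic entry, was at 115 and 97.7 RPKM, and Ccnb2, a related B-type cyclin, at 62.4 and 50.9 RPKM. All 4 lay below control, but Cdk1 by more than its cyclins. The RPKM of Ccnb1 was 0.826 times that of Cdk1 in control and 1.11 times in mutant. Cdk1 thus moved from rank 2 to rank 5 by level among the 34 genes. Cdc25c, a phosphatase that removes inhibitory phosphates from CDK1, had the lowest level of all 34 genes, at 9.56 and 11.4 RPKM (log2 difference 0.23). The related genes Cdc25a (-0.42) and Cdc25b (7.97 and 6.65 RPKM, -0.23), which are outside the 34, were lower. With length and GC trends removed the median of the 5 members (Cdk1, the cyclins and Cdc25c) was -0.29, the same as without.

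Mitotic kinases were lower for 5 of 6 genes, with a median of -0.12. Aurkb, the Aurora kinase of the chromosomal passenger complex, was at 37.7 and 27.6 RPKM (log2 difference -0.44). Aurka, the Aurora kinase of centrosomes and spindle poles, was at 31.6 and 29.3 RPKM (-0.10), a smaller difference than that of Aurkb. Plk1, a kinase that acts from mitotic entry to cytokinesis, was at 26.1 and 21.7 RPKM. Ttk, which starts checkpoint signalling at unattached kinetochores, was at 24.7 and 23.8 RPKM (-0.05), nearest to control of the 6. Bub1b, which encodes the checkpoint protein BUBR1, was at 74.2 and 67.3 RPKM, and its relative Bub1 was the 1 higher kinase gene, at 45.2 and 49.3 RPKM. All 6 kinase genes lay below 0 with length and GC trends removed, with a median of -0.13. So did 6859 of 12183 protein-coding genes, whose median was -0.06, and Aurka and Bub1 lay above that median. Bub1 then went from 0.12 to -0.01, Aurka to -0.01, Plk1 from -0.26 to -0.12, Aurkb to -0.33 and Ttk to -0.14.

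Genes of the kinetochore and of the chromosomal passenger complex, which corrects faulty chromosome attachments, did not go one way. Birc5 (chromosome 11, 117849251 to 117855743) was at 53.4 and 34.4 RPKM, 1.55-fold lower (counting interval of the ratio 0.624 to 0.665). Cdca8, which encodes the passenger subunit borealin, was at 55.7 and 49.4 RPKM. With Aurkb and with Incenp, the scaffold subunit, at 39.6 and 33.7 RPKM, all 4 subunits of the passenger complex were lower. Cenpe (chromosome 3, 135212537 to 135273611), the motor that brings chromosomes to the spindle equator, was at 25.3 and 36.03 RPKM, a ratio of 1.42 (counting interval 1.39 to 1.46). Ndc80 (chromosome 17, 71496100 to 71526857) was at 32.6 and 42.3 RPKM, a ratio of 1.30, and Cenpf, a large kinetochore protein, at 53.8 and 55.9 RPKM. The other subunits of the NDC80 complex did not share one direction. Nuf2 was at 29.4 and 22.6 RPKM, Spc24 at 19.3 and 14.8 RPKM, and Spc25 at 52.7 and 59.8 RPKM. These complexes were laid out subunit by subunit after their values were seen. Removing length and GC trends brought Cenpe from 0.49 to 0.25 and Cenpf from 0.05 to -0.25, and left Ndc80 at 0.32 and Birc5 at -0.66. Of the other passenger subunits, Cdca8 then went from -0.17 to -0.03 and Incenp from -0.23 to -0.16. Cdca8 thus lay above the median of protein-coding genes (-0.06).

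Spindle motors and microtubule-associated proteins had a median of -0.03 over 8 genes and a range from -0.20 to 0.22. Their median was -0.17 with length and GC trends removed, the same as that of all 34 genes, with 5 of 8 lower in either case. Kif11, the motor that pushes spindle poles apart, was at 40.4 RPKM in both values, a difference near 0 that became -0.17 with these trends removed. Tacc3, which stabilises spindle microtubules, was at 87.3 and 87.9 RPKM. Kif2c, a kinesin that depolymerises microtubules, was at 46.1 and 40.1 RPKM, and Tpx2, an activator of Aurora A, at 46.6 and 41.8 RPKM. Nusap1, a microtubule-bundling protein, was at 26.4 and 25.4 RPKM. Hmmr, which acts in spindle assembly, was higher, at 20.5 and 23.8 RPKM (0.20, or 0.06 with the trends removed). The related genes Ckap2 and Ckap2l, whose products bind spindle microtubules, lay on opposite sides of control. Ckap2 was at 27.3 and 32.1 RPKM and Ckap2l at 14.5 and 12.9 RPKM.

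Of 4 genes of cytokinesis 3 were lower. Anln, which encodes the contractile ring protein anillin, was at 34.7 and 28.6 RPKM. Kif23, the motor of the centralspindlin complex, was at 25.2 and 22.1 RPKM, and Kif20a, which brings the passenger complex to the spindle midzone, at 53.8 and 48.2 RPKM. Kif20b (chromosome 19, 34922358 to 34975731) was higher, at 16.1 and 20.9 RPKM, a ratio of 1.30 (counting interval 1.25 to 1.35). The paralogs Kif20a and Kif20b thus lay on opposite sides of control. Removal of length and GC trends took Kif20b from 0.36 to 0.14 and Anln from -0.27 to -0.39.

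Chromosome proteins were near or above control. Top2a, the topoisomerase that untangles sister chromatids, had the highest level of the 34 genes in both genotypes, at 186 and 201 RPKM. Its entry also holds the small gene Gm23451, so this value is not that of Top2a alone. Mki67, which encodes the proliferation marker Ki-67 on mitotic chromosomes, was at 64.7 and 62.7 RPKM, a ratio of 0.970 (counting interval 0.956 to 0.984). Cdca2, which brings a phosphatase to chromosomes at mitotic exit, was at 27.6 and 33.1 RPKM. With length and GC trends removed Mki67 was at -0.28, Top2a at -0.05 and Cdca2 at 0.23.

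The 3 genes of mitotic protein degradation were all lower, with the lowest median of the roles (-0.45). Cdca3 (chromosome 6, 124829547 to 124833701), whose product promotes destruction of the CDK1 inhibitor WEE1, was at 66.2 and 43.5 RPKM, 1.52-fold lower (counting interval of the ratio 0.632 to 0.683). Ube2c, the ubiquitin-conjugating enzyme of the APC/C, was at 71.1 and 51.7 RPKM (-0.45, or -0.32 with length and GC trends removed). Cdc20, the APC/C activator held back by the spindle checkpoint, was at 100.03 and 93.0 RPKM (-0.10), which became 0.05 with length and GC trends removed. Cdca3 was past 1.5-fold in the deposited values but short of it with these trends removed (-0.51) and with quantile normalization (-0.58).

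**Figure D3:**
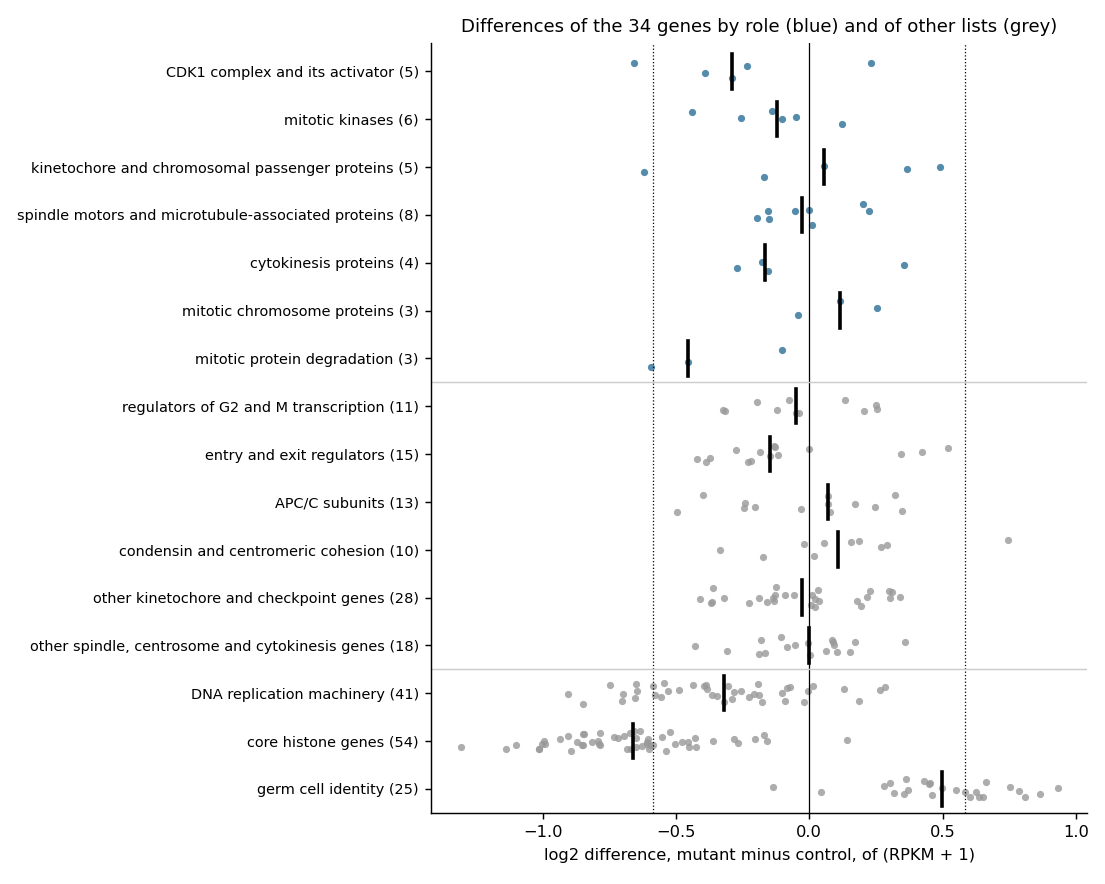
Log2 difference (mutant minus control, RPKM + 1) of each of the 34 genes by role (blue points) and of other gene lists (grey points), with the number measured in brackets, the median as a black bar and dotted lines at 1.5-fold. Medians of the 7 roles run from -0.45 (mitotic protein degradation) to 0.12 (mitotic chromosome proteins), the median of the core histone genes (-0.66) lies left of these and that of the germ cell identity genes (0.50) to the right. With length and GC trends removed, which the plot does not show, the core histone median is -0.34 and that of mitotic protein degradation -0.32.

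Differences among the 34 genes went with properties of their transcripts. Across the genes, which are not independent replicates, Spearman's rho between log2 transcript length and log2 difference was 0.35 (Pearson's r 0.33), and between GC content and difference -0.51 (Pearson's r -0.51). Over 12183 protein-coding genes the same rho was 0.23 for length and -0.21 for GC content. When protein-coding genes were cut into 4 equal classes by length, the 4 members of the shortest class (Ccnb2, Cdca8, Aurka and Cdc20) were all lower, with a median of -0.14, where all genes of that class had a median of -0.23. In the longest class, 4 of 7 genes were higher, with a median of 0.05 against 0.07 for all. In the middle classes the set lay further below, at -0.22 against -0.10 over 12 genes and at -0.15 against -0.02 over 11 genes. Genes with higher control levels also had lower differences (rho -0.44 with log2 control RPKM), a relation in which control enters both measures. The part of length, GC content or level in any single difference was not tested.

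**Figure D4:**
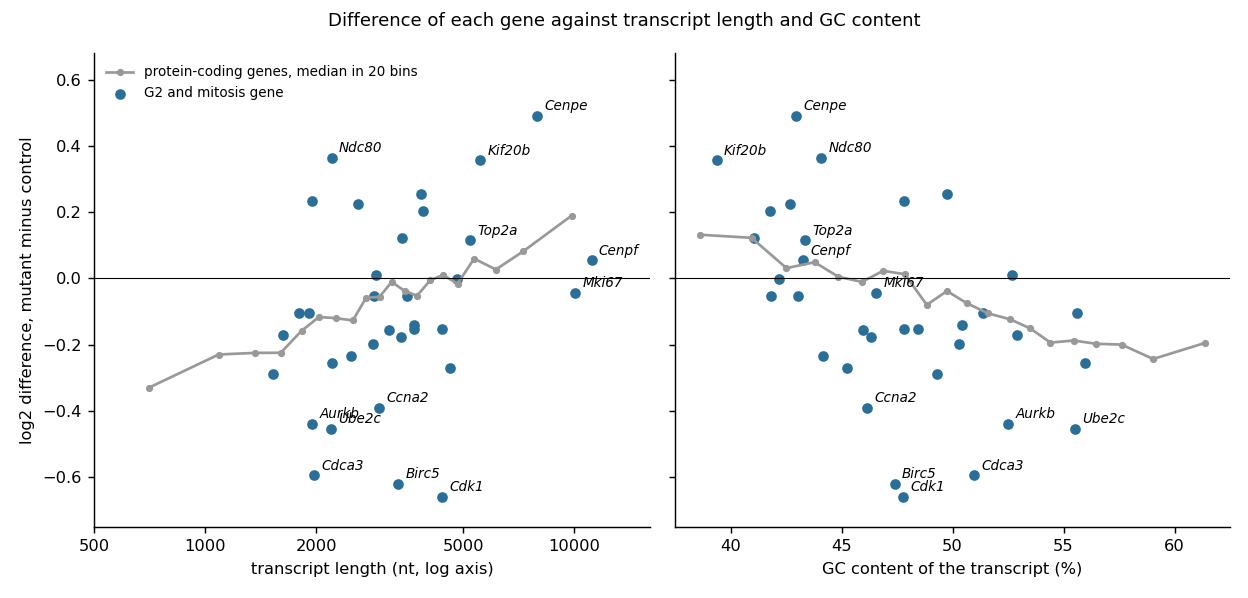
Log2 difference of each of the 34 genes (blue points) against transcript length (left, log axis, longest annotated transcript) and GC content (right), with medians of protein-coding genes in 20 bins as grey lines. Cdk1 and Birc5 lie below the grey line and Cenpe and Ndc80 above it in both panels, while Cenpf and Mki67 lie right of the last bin for length and below its value.

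The rest of the G2 and M programme was spread about 0. Of 100 further genes with such roles, 95 were measured in an entry of their own, of which 51 were lower and 44 higher, with a median of -0.03. Once length and GC trends were removed, 59 of 92 were lower, with a median of -0.08. Protein-coding genes then had a median of -0.06. In the deposited values none was 1.5-fold lower, and Smc4 alone was 1.5-fold higher. Of the regulators known to act on such promoters, 7 of 11 were lower, with a median of -0.05 and a range from -0.32 to 0.25. Of the 11, 5 were lower with length and GC trends removed. Nfya, a DNA-binding subunit of NF-Y, was at 22.7 and 17.9 RPKM. Of the MuvB genes, Lin37 was at 39.7 and 34.5 RPKM, while Lin9 was at 13.9 and 16.8 RPKM. Foxm1, a forkhead activator of these genes, was at 27.1 and 26.8 RPKM in an entry shared with 4933413G19Rik.

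Entry and exit regulators were lower for 12 of 15 genes, with a median of -0.15, and for 10 of 15 with length and GC trends removed. Cdc25a, a phosphatase that activates CDK kinases, was at 23.3 and 17.1 RPKM and Pbk, a mitotic kinase, at 70.6 and 53.7 RPKM. Espl1, which encodes separase, the protease that opens cohesin at anaphase, was higher, at 18.5 and 27.0 RPKM. The 13 APC/C subunit genes split, with 6 lower and 7 higher (7 lower with length and GC trends removed). The gene of the small subunit Cdc26 was at 27.7 and 19.3 RPKM, that of the small subunit Anapc13 at 92.5 and 69.9 RPKM, and Anapc7 was at 24.8 and 31.9 RPKM. With these trends removed Anapc13 went from -0.40 to -0.12 and Cdc26 from -0.50 to -0.36.

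Other kinetochore and checkpoint genes split evenly, 14 against 14, while 17 of 27 were lower with length and GC trends removed. Cenpa, the histone H3 variant of centromeres, was at 137 and 103 RPKM and Cenpm, of the inner kinetochore, at 13.5 and 10.3 RPKM (-0.37, or -0.16 with the trends removed). Cenpk, also of the inner kinetochore, was at 12.2 and 15.7 RPKM. Other spindle, centrosome and cytokinesis genes were 9 lower and 9 higher, and 15 of the 18 were lower with length and GC trends removed. Their median was then -0.08 and that of the other kinetochore and checkpoint genes -0.07. Both lay close to the -0.06 of protein-coding genes, of which 6859 of 12183 were then lower. Kif22, a chromosome-bound kinesin, was at 26.1 and 19.1 RPKM and Racgap1, the partner of KIF23 in centralspindlin, at 49.5 and 39.8 RPKM. Depdc1b was at 6.11 and 8.12 RPKM.

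Genes of other cell cycle phases were set beside the 34 genes. DNA replication genes were lower for 36 of 41 measured in an entry of their own, with a median of -0.32, and 9 of them were at least 1.5-fold lower. Of protein-coding genes tested 55.7% were lower and 14.9% at least 1.5-fold lower (49.6% and 13.7% of all genes tested). Pcna, the sliding clamp, was at 164 and 109 RPKM, Mcm2 at 92.4 and 61.5 RPKM and Mcm5 at 94.1 and 72.9 RPKM. Core histone genes were lower for 53 of 54, with a median of -0.66, and near-identical copies among them can share reads. Their transcripts are short, with a median length of 514 nt, and with length and GC trends removed their median was -0.34, close to the -0.33 of the replication genes. Ccnd2, a D-type cyclin of G1, was at 247 and 102 RPKM. The median of the G2 and mitosis genes lay between that of the replication genes and that of all genes tested, and no difference between lists was tested.

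Markers of other cells moved in the same values. THY1-positive fractions of neonatal testis can hold somatic cells, and any dividing cell contributes mitotic transcripts. Macrophage markers were lower for 10 of 10 genes, with a summed level of 4142 RPKM in control and 1456 RPKM in mutant (Lyz2 at 1339 and 428 RPKM, Tyrobp at 677 and 230 RPKM). Leydig cell markers in entries of their own were lower for 5 of 5 (sum 482 and 166 RPKM), Sertoli cell markers for 9 of 10 (sum 359 and 175 RPKM) and fibroblast and myoid markers for 7 of 7 (sum 260 and 135 RPKM). Erythroid markers were lower for 5 of 5 (sum 416 and 76.5 RPKM). Of these, 4 were at least 2-fold lower, while Alas2 was near level at 6.46 and 6.40 RPKM. Endothelial markers stayed level, with 4 of 7 lower and sums of 27.97 and 27.72 RPKM, and lymphocyte markers were lower for 3 of 6 (sum 71.6 and 48.0 RPKM). Germ cell markers were higher for 8 of 10, with a summed level of 1104 and 1484 RPKM (Uchl1 at 519 and 774 RPKM, Dazl at 274 and 353 RPKM). The other 2 were more than 2-fold lower, Gfra1 at 35.9 and 14.2 RPKM and Sall4 at 72.3 and 30.3 RPKM. Thy1 itself was at 7.11 and 8.61 RPKM, and no marker in these lists was at 0 in either genotype. In such bulk RNA, fewer cells of a type and less RNA per cell cannot be told apart. The part of these cells in the differences of the mitotic genes was not tested. Of 8 genes linked to spermatogonial differentiation 5 were lower and 3 higher, all by at least 1.5-fold. The 5 lower include Kitl, the gene of the ligand of KIT, at 10.2 and 5.37 RPKM. Stra8 was at 45.2 and 8.60 RPKM and Kit at 27.3 and 9.65 RPKM. Sohlh1 was at 37.2 and 60.6 RPKM, Sohlh2 at 30.8 and 50.5 RPKM and Dmrtb1 at 3.55 and 6.34 RPKM.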

How the data were processed

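RNA-seq of 4 libraries (2 control, 2 mutant) was deposited as 1 table of RPKM, which the authors combined to 1 value per genotype, per the file headers. The submitters' processing notes name TopHat2 2.0.11 and GRCm38. How reads were counted, on which annotation and how libraries were combined was not stated there. Members were matched by symbol, split at commas. Differences were log2((mutant RPKM + 1) / (control RPKM + 1)), without a test. Fold and ratio values printed for single genes use plain RPKM. Counts and shares of genes past 1.5-fold or 2-fold use the log2(RPKM + 1) differences. The background holds genes that reached an RPKM of 1 in either genotype and had 1 symbol per entry. Transcript length and GC content came from GENCODE M21, using the longest transcript of the basic set. The table's starts are 0-based and were made 1-based. Reads per RPKM were found by a grid search over low values of genes with 1 transcript of at least 1000 nt. Trends were removed with splines of 4 degrees of freedom and a Huber fit (statsmodels 0.14.6). The median of the protein-coding genes tested was held in place. The code was tested on simulated data. Named genes were all 34 members and the 2 lowest and 1 highest of each further list at 5 RPKM or more. Also named were 6 genes of comparison lists and the 2 most abundant markers per list, printed here for macrophages and germ cells. Gfra1, Sall4, Sohlh1, Sohlh2 and Dmrtb1 are printed outside these rules. Incenp, Nuf2, Spc24, Spc25, Foxm1, Smc2, Thy1, Cdc25b, Alas2 and Kitl were added after their values were seen. Members and lists were chosen with earlier results of these data known. Protein motifs were planned and are not analysed here.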

Additional observations from a re-analysis of the deposited data

How the results depend on the processing

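With pseudocounts of 0.1 and 0.5 RPKM, without a filter, with a minimum of 5 RPKM, after rescaling to the median of all genes tested and without the entry shared by several symbols, the sign of every gene measured and the 3 genes at least 1.5-fold lower were as reported. Quantile normalization, run over 33 genes in entries of their own, left 1 gene (Birc5) at least 1.5-fold lower and changed the sign of Kif11. Rescaling to the germ cell identity list gave a median of -0.61, with all 34 genes lower. Of these, 19 were at least 1.5-fold lower and 3 at least 2-fold lower. The median over all genes tested moved by -0.43 at this scaling. Shares of all genes tested past these folds are not given here for it. That scaling lowers every value by construction. With length and GC trends removed, the median was -0.17, Top2a, Bub1, Cdc20 and Cenpf changed sign and 2 genes were 1.5-fold lower. The length trend alone and the GC trend alone, added after seeing the data, gave medians of -0.16 and -0.14. No paired analysis was possible because the table holds 1 combined value per genotype, and for the same reason no replicate could be left out. The thinnest value, Cdc25c in control, rests on about 934 reads.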

Other observations

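Condensin, the complex that compacts mitotic chromosomes, was uneven between its partner subunits. Smc4, 1 of the pair of ATPases shared by both condensins, was the 1 further G2 and M gene past 1.5-fold, at 82.3 RPKM (control) and 139 RPKM (mutant), a log2 difference of 0.75 (0.57 with length and GC trends removed). Its obligate partner Smc2 was at 40.6 and 41.1 RPKM. Of the non-SMC subunits in entries of their own, Ncapg was at 36.3 and 41.5 RPKM, Ncaph at 39.0 and 38.5 RPKM, Ncapd3 at 32.7 and 39.6 RPKM, Ncapg2 at 20.96 and 21.8 RPKM and Ncaph2 at 135 and 120 RPKM. Ncapd2 shares its entry with the small RNA gene Scarna10, at 4637 and 4355 RPKM, so no value of Ncapd2 alone was used. Cdca5, which encodes the cohesin-protecting protein sororin, was at 29.95 and 23.5 RPKM. These genes were looked at after Smc4 stood out, and the values have no replicate check.

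Mki67 and Pcna, commonly read as markers of dividing cells, differed by unequal amounts. The RPKM of Mki67 was 0.394 times that of Pcna in control and 0.576 times in mutant. The transcript of Mki67 has 10061 nt and that of Pcna 1518 nt. With length and GC trends removed their log2 differences lay closer, from -0.04 and -0.59 to -0.28 and -0.56. Ccna2 per Cdk1 went from 0.748 to 0.902 and Aurkb per Aurka from 1.19 to 0.939. Ccnb1 per Ccnb2 was 1.84 in control and 1.92 in mutant.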
